A study of Mus musculus with 3 samples.

Results

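The heat shock proteins and chaperonins are followed here in mouse acute leukaemia cells that differ in their response to cytarabine (Ara-C), a nucleoside drug that cells phosphorylate and build into DNA, where it blocks replication. Members were all genes whose symbol on the array starts with Hspa, Hspb, Hspd, Hspe, Hsph, Hsp90, Dnaja, Dnajb, Dnajc or Cct and goes on with a number (after Hsp90, with any subunit name), plus Tcp1 and Hsf1, leaving out Hspa5 and Dnajb9. This gave 78 of 17742 named genes, on 97 of 26423 probes, and each gene was read from whichever of its probes was brightest on average. No probe carried the symbol Hspa8, Hspd1 or Hsp90aa1, so those 3 genes are not analysed here. The resistant group was 1 array of B117HS, and the sensitive group was 2 arrays of its parent B117P. Both are lines of acute leukaemia cells from bone marrow of the mouse strain BXH-2. B117HS was obtained from B117P by exposure to rising concentrations of Ara-C over about 10 weeks, and its IC50 for the drug was about 10 times higher per the labels. The question is how transcript levels in the derived line compare with those in the parent. B117HS is a single derived line on a single array, so resistance and any other change that arose during its derivation cannot be told apart. The labels do not say whether the drug was present at harvest, nor whether separate cultures lie behind the sensitive arrays. The p-values rest on the spread between those arrays alone, and that spread may be technical.

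Chaperones help other proteins fold, keep them from clumping and hand damaged ones on for degradation. Hsp70 proteins bind short unfolded stretches in a cycle that J-domain proteins (the Dnaja, Dnajb and Dnajc families) start and exchange factors such as the Hsp110 proteins reset, while Hsp90 finishes the folding of kinases and receptors. The CCT ring, built from Tcp1 and the Cct subunits, folds actin and tubulin inside a closed chamber, Hspe1 is the lid of the mitochondrial chaperonin, and small heat shock proteins hold unfolded proteins without using ATP. The transcription factor Hsf1 drives the heat-inducible members through heat shock elements, repeats of the letters GAA and TTC in alternating direction.

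The resistant array was dimmer than the others. Median intensity was 24.9 units on the resistant array, against 58.4 and 72.5 units on the sensitive arrays. Bright probes were taken as the 6165 whose sensitive mean reached 500 units, with 50 units or more on each array, and their median log2 ratio of resistant intensity to that mean was -0.85. Each gene was therefore read on 2 scales, as deposited and after each array was multiplied by 1 factor that sets this ratio to 0 (scaling on bright probes). All differences below are of log2(intensity + 50), resistant minus sensitive, and understate the change of dim genes. A call needed a limma p under 0.05 after Benjamini-Hochberg adjustment over all genes and a difference of 1 or more, with equal sign, from both sensitive arrays taken singly. "Rose" and "fell" are used only of genes called on both scales. Over all 17742 genes, 5.21% rose and 7.74% fell. As deposited 5.23% were called higher and 18.5% lower, and after scaling 10.7% were called higher and 7.87% lower. The median difference of all genes was -0.33 as deposited and -0.03 after scaling. The labels give acute leukaemia from bone marrow, and the granule gene Mpo, a marker of myeloid precursors, read 80905 units on the resistant array and 76710 and 84138 units on the sensitive arrays. The 13 measured myeloid markers summed to 160363 units on the resistant array, against 123507 and 134431 units on the sensitive arrays, and 3 of them rose while 1 fell. The granule protease Elane read 11153 units on the resistant array, against 272 and 350 units on the sensitive arrays (4.96), and Csf2rb (2.70) and Ctsg (1.14) also rose. The myeloid transcription factor Spi1 fell, at 109 units on the resistant array against 634 and 591 units on the sensitive arrays (-2.06). Itgam (-1.89) and Csf3r (-1.78) were called lower on the deposited scale alone. Cebpa (1.79) and Cebpe (1.25) were called higher after scaling alone, Cebpe at only 38.9 units on the resistant array. Of 21 measured markers of other cell types, 12 stayed at or below 50 units on all arrays, 1 rose (Kdr) and 1 fell (Pdgfrb). Their sums were 3125 units on the resistant array against 2115 and 2171 units on the sensitive arrays. The stroma and endothelium markers, chiefly Pecam1 and Kdr, held most of the resistant sum, at 2784 units against 1249 and 1345. Each other list summed lower on the resistant array, for T cells 107 units against 308 and 274. Pecam1 was called higher after scaling alone (1.84) and Cd79a lower as deposited alone (-1.15). The part of other cell types in the results was not tested. RNA of whole cultures was measured, so fewer cells with a transcript and less of it per cell cannot be told apart.

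Of the 78 chaperone genes, 8 rose, 4 fell and 66 were not called on both scales. The genes that fell were Hspb1, Hspe1, Hspa1b and Hspb11, and those that rose were Hspa4, Hspa4l, Hspa13, Dnajb4, Dnajb6, Dnajc6, Dnajc10 and Dnajc14. In percent, 10.3% of the members rose and 5.13% fell, beside 5.21% and 7.74% of all genes. As deposited, 8 members were called higher and 13 lower, and after scaling 16 were called higher and 4 lower. The median difference of the members was -0.26 as deposited and 0.30 after scaling. Both lie above the medians of all genes, but the members were also brighter. Among 3755 genes of at least 500 units on all arrays the medians were -0.55 and 0.28, and among the 37 chaperones as bright they were -0.45 and 0.40. Of those 3755 genes 262 rose and 144 fell, and of the 37 chaperones 2 rose and 1 fell. The sensitive arrays differed from each other by a median of 0.04 over the members, by -0.52 to 0.60 at the extremes, and by 1 or more in 0 of 78 genes.

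**Figure D1:**
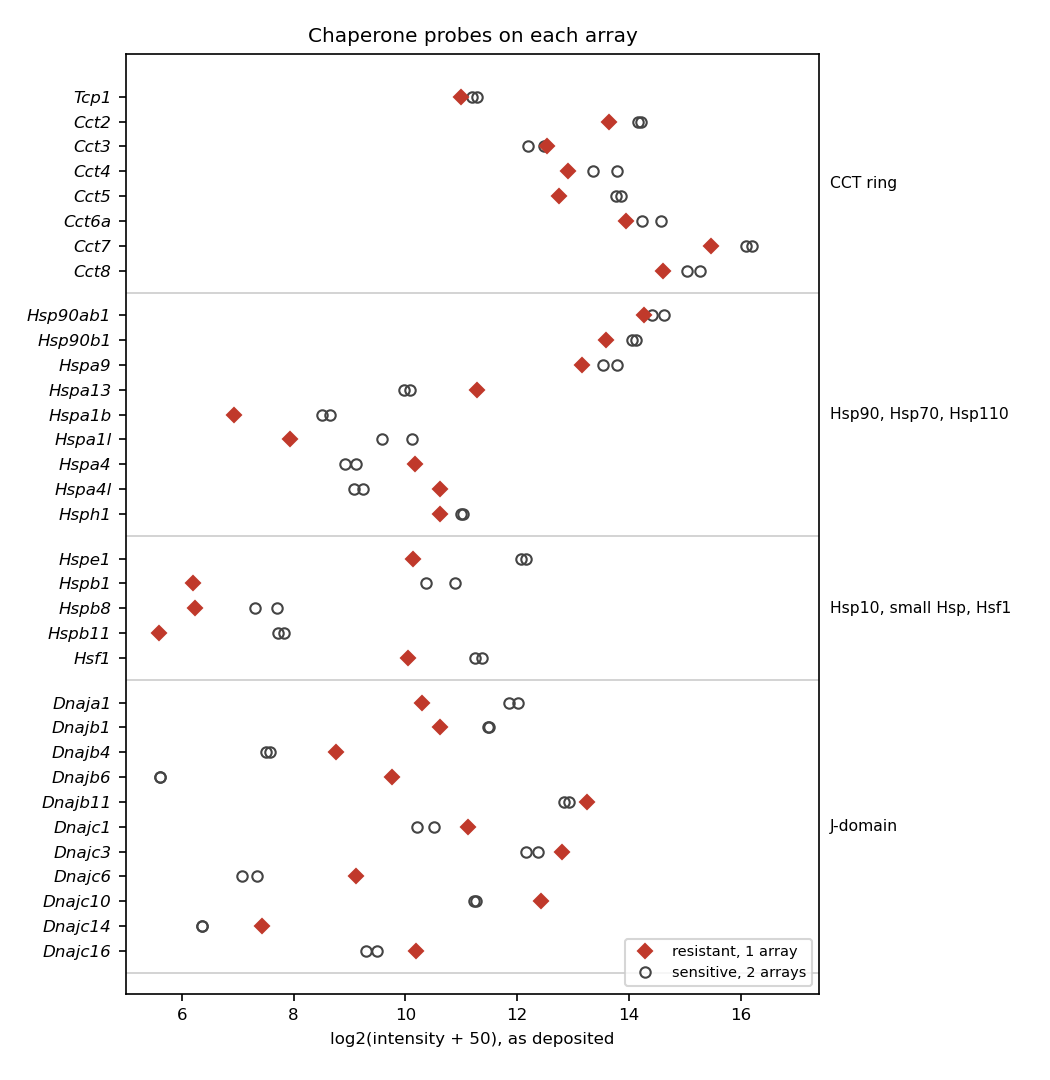
Intensity of 33 chaperone genes on each array, as log2(intensity + 50) on the horizontal axis, with 1 row per gene. Diamonds are the resistant array and open circles are the 2 sensitive arrays. Hspb1 lies far to the left on the resistant array, while Hspa13, Hspa4, Hspa4l and Dnajc10 lie to the right of their sensitive values.

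The small heat shock protein gene Hspb1 fell. Its protein, Hsp27 in human cells, binds unfolded proteins and actin. The Hspb1 probe read 23.3 units on the resistant array, against 1840 and 1268 units on the sensitive arrays. The resistant value was thus just under the median probe of its array, and both sensitive values were far above it. The difference was -4.43 (SE 0.27, limma adjusted p = 1.86e-07) as deposited and -4.10 after scaling (limma adjusted p = 0.0076). The lowest value on the resistant array was -23.3 units, so 23.3 units is not shown to lie above background and no fold is given. The size depends on the offset, at -5.29 with 16 units and -3.72 with 100 units.

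Hspe1, the lid of the mitochondrial chaperonin, fell as well. It read 1073 units on the resistant array, against 4545 and 4222 units on the sensitive arrays, which do not reach down near the resistant value. The difference was -1.98 (SE 0.20, limma adjusted p = 9.99e-06) as deposited and -1.16 after scaling. Hspa1b, an inducible Hsp70, read 71.6 units on the resistant array and 313 and 353 units on the sensitive arrays, a difference of -1.65 (limma adjusted p = 5.65e-04) as deposited and -1.10 after scaling. Hspa1b and its neighbour Hspa1a on chromosome 17 are near-identical genes, so their transcripts may share probes. The Hspa1a probe read -1.56 units on the resistant array and 3.73 and 5.28 units on the sensitive arrays, so it stayed under 10 units on each array. Hspa1l, another Hsp70 gene on that chromosome, known mainly from testis, read 196 units on the resistant array and 716 and 1063 units on the sensitive arrays. It was called lower as deposited (-1.91) but not after scaling (-1.20).

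Hspb11, which despite its name encodes a subunit of the intraflagellar transport machinery, read -1.56 units on the resistant array, against 160 and 177 units on the sensitive arrays. Its difference was -2.17 as deposited and -2.21 after scaling, and -3.67 as deposited with an offset of 16 units. A value at or below 10 units is only a bound, so no fold is given, and flags for failed spots were not used here.

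Because 3 of the 4 genes that fell are heat-inducible, the 250 bases before their transcription start are shown, from RefSeq on GRCm38.p6. Each is written 5′ to 3′ along the gene's strand, with heat shock element letters in capitals (GAANNTTC or TTCNNGAA, N being any base, searched on both strands).

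Hspb1, chr5:135887669-135887918, plus strand: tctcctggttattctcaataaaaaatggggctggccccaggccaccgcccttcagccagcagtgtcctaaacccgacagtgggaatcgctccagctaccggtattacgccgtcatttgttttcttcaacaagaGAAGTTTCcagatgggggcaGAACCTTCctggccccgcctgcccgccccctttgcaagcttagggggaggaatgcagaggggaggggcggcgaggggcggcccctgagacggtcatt
Hspa1b, chr17:34959239-34959488, minus strand: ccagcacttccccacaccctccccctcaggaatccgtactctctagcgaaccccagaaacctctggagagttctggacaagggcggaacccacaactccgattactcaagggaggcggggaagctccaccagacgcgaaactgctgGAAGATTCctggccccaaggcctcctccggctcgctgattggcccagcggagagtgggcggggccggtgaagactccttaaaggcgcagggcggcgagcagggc
Hspe1, chr1:55087898-55088147, plus strand: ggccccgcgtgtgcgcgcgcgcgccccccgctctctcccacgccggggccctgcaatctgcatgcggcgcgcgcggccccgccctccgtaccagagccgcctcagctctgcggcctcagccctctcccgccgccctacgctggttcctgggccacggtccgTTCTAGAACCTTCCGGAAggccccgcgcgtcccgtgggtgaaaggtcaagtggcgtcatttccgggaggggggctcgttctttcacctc

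Hspb1 held 2 separate copies of GAANNTTC, starting 117 and 97 bases before the transcription start. Hspa1b held 1, starting 104 bases before it. In Hspe1 the copies overlapped into an unbroken run from 89 to 72 bases before the start, which also holds the longer form of 3 alternating units on each strand. That longer form was found upstream of 0.514% of 27025 genes, and of 2 of the 64 members with a promoter entry, Hspe1 and Dnajb6. Either of the shorter forms was found for 14.5% of all genes, 16 of 64 members, 3 of the 4 members that fell and 3 of the 7 with an entry that rose. These are matches of letters in a window, not measured binding.

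Genes known as heat-inducible were split. Of 10 such members, grouped with the values known, 3 fell, 1 rose and 6 were not called on both scales. Over all genes 7.74% fell and 5.21% rose. The median of the 10 was -1.07 as deposited and -0.52 after scaling, beside -0.33 and -0.03 for all genes. The group includes Hsp90ab1, which is also abundant without heat, and without it the medians of the other 9 were -1.28 and -0.82. Dnaja1, a J-domain partner of cytosolic Hsp70, read 1204 units on the resistant array and 4104 and 3666 units on the sensitive arrays, a call on the deposited scale only (-1.65, against -0.82 once scaled). Hspb8, a small heat shock protein that works with Bag3 in autophagy, passed only on the deposited scale too (-1.28, and -0.94 once scaled). Dnajb1, the J-domain protein most closely tied to the heat shock response, read 1526 units on the resistant array and 2808 and 2831 units on the sensitive arrays, a difference of -0.86 that came to -0.04 after scaling. Hsph1, an inducible Hsp110, read 1521 units on the resistant array and 1998 and 2031 units on the sensitive arrays, with -0.39 as deposited and 0.43 after scaling. The sign of Hsph1 therefore turned with the scale, and it was called on neither. The letters TTCNNGAA or GAANNTTC were found upstream of 7 of the 9 heat-inducible members with a promoter entry.

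Hsf1 itself was lower on the deposited scale. Its probe read 1008 units on the resistant array, against 2375 and 2588 units on the sensitive arrays. The difference was -1.26 (SE 0.21, limma adjusted p = 3.82e-04) as deposited and -0.44 after scaling (limma adjusted p = 0.108), so the call did not hold on both scales. The mRNA level says nothing about the trimer formation through which Hsf1 is activated.

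Hspa4l, Hspa4 and Hspa13, all related to Hsp70, and the heat-inducible Dnajb4 were higher in the resistant cells. Hspa4l and Hspa4 encode Hsp110 proteins, which release ADP from Hsp70. Hspa4l read 1515 units on the resistant array and 555 and 492 units on the sensitive arrays, a difference of 1.45 (SE 0.23, limma adjusted p = 2.94e-04) as deposited and 2.28 after scaling. Hspa4 read 1101 units on the resistant array, against 435 and 505 units on the sensitive arrays, a difference of 1.15 as deposited (limma adjusted p = 0.0019) and 1.97 after scaling, and its deposited call was lost with an offset of 100 units. For these genes the resistant value lay above both sensitive values even before scaling, whereas for Hsph1, the remaining Hsp110, it lay below them. Hspa13, an Hsp70 of the endoplasmic reticulum membrane, read 2431 units on the resistant array and 962 and 1030 units on the sensitive arrays, a difference of 1.25 (SE 0.21, limma adjusted p = 4.83e-04) as deposited and 2.08 after scaling.

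Dnajb4, a J-domain protein related to Dnajb1, read 383 units on the resistant array and 140 and 132 units on the sensitive arrays. Its difference was 1.22 (limma adjusted p = 0.0044) as deposited and 1.99 after scaling. It is shown as the heat-inducible member that rose, with the window before 1 of its 2 listed starts, which holds TTCNNGAA.

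Dnajb4, chr3:152193846-152194095, minus strand: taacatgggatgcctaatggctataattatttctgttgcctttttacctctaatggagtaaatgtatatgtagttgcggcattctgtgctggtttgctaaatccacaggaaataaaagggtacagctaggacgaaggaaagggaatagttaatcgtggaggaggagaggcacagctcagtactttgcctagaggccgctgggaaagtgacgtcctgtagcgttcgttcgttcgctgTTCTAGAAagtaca

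The capitals begin 14 bases before that start, and the window before the other start held no such letters. Either short form stood before 3 of the 7 members with an entry that rose and 3 of the 4 that fell. Its part in the differences was not tested.

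Of 12 measured genes of the Hsp70 and Hsp110 family, 3 rose, 1 fell and 8 were not called on both scales. Of all genes 5.21% rose and 7.74% fell. The family's median was -0.12 as deposited and 0.34 after scaling. Hspa9, the mitochondrial Hsp70, read 9144 units on the resistant array and 11753 and 14050 units on the sensitive arrays. It gave -0.49 as deposited and 0.36 once scaled. Hspa14, which sits on ribosomes and binds nascent chains, gave -0.95 as deposited and -0.11 once scaled, among the smallest scaled differences of the bright members, with Dnajb1 (-0.04) and the ribosome-bound J-domain gene Dnajc2 (-0.06).

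**Figure D2:**
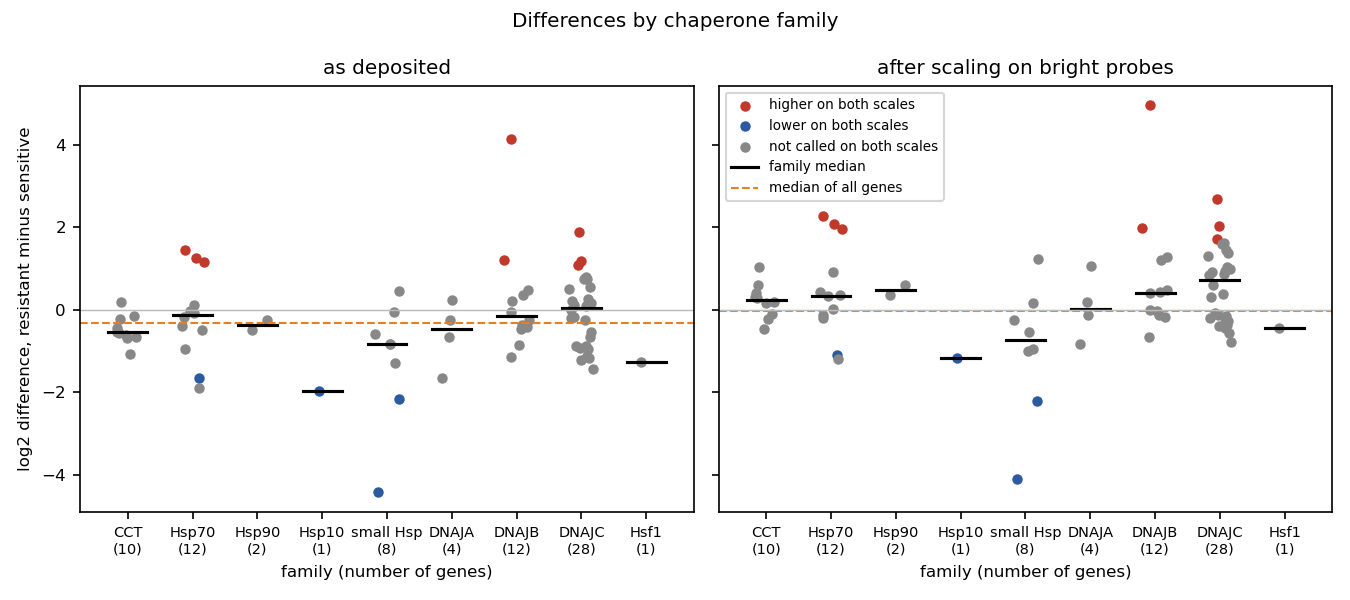
Difference between the resistant array and the mean of the sensitive arrays for each member, by family, as deposited on the left and after scaling on bright probes on the right (log2, vertical axis). Points are genes, coloured by whether they were called on both scales, black bars are family medians and the dashed line is the median of all genes. The small heat shock proteins, Hspb11 included, sit lowest among the families with several genes, at a median of -0.74 after scaling, and the Dnajc genes highest, at 0.72.

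J-domain proteins were the largest family, and none of them fell. Of 44 measured, 5 rose, beside 5.21% of all genes, and 39 were not called on both scales. As deposited 5 were called higher and 5 lower, and after scaling 12 were called higher and 0 lower in limma, beside 10.7% and 7.87% of all genes. At an unadjusted p under 0.05 in limma after scaling, 21 were higher and 2 lower. No count over all genes was made at that threshold, so these counts do not set the family apart. Bright genes leaned the same way, but only 20 of the 44 were at 500 units or more on every array. Of all 3755 genes that bright, 751 were called higher and 144 lower after scaling. Dnajc6, auxilin, which uncoats clathrin vesicles with Hsc70 and is best known from neurons, read 504 units on the resistant array and 85.7 and 113 units on the sensitive arrays. Its difference was 1.90 (SE 0.30, limma adjusted p = 2.74e-04) as deposited and 2.69 after scaling, a 5.06-fold higher intensity as deposited. Dnajc17, Dnajc7, Dnajb13, Dnajc9 and Dnaja1 were the 5 called lower as deposited only, between -1.65 (Dnaja1) and -1.11 (Dnajc9), and they lay between -0.82 and -0.29 after scaling. Dnajc7 is a co-chaperone that links Hsp70 and Hsp90, and Dnajc9 a chaperone of histones.

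Dnajb6, a suppressor of polyglutamine aggregation, had the largest positive difference of the members but gave opposite answers on its probes. The brighter probe read 815 units on the resistant array, against -1.24 and -1.32 units on the sensitive arrays (4.15 as deposited). The other read 24.9 units on the resistant array, against 225 and 156 units on the sensitive arrays (-1.67). The first is near 0 on both sensitive arrays and the second is low on the resistant array. The direction for the gene is thus unsettled, and the counts above include it as higher only through the rule that takes the brighter probe.

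Chaperones of the endoplasmic reticulum held 3 of the 8 members that rose and none that fell. Of 12 members that reside there, grouped with the values known, 3 rose (Hspa13, Dnajc10 and Dnajc14), 0 fell and 9 were not called on both scales. Over all genes, 5.21% rose and 7.74% fell. After scaling 8 of the 12 were called higher, beside 10.7% of all genes. All but Hspa13 and Hsp90b1 in it are J-domain genes, so the group overlaps the family counted above. The group is bright, with 9 of the 12 at 500 units or more on every array. Of the 3755 genes that bright, 751 were called higher after scaling. Their median difference was 0.51 as deposited and 1.34 after scaling, against -0.40 and 0.17 for the other 66 members, a description with no test. Dnajc10, a J-domain protein that reduces disulfide bonds, read 5474 units on the resistant array and 2419 and 2332 units on the sensitive arrays, a difference of 1.19 (SE 0.20, limma adjusted p = 4.29e-04) as deposited and 2.03 after scaling. Dnajc14, a membrane protein involved in receptor export, read 123 units on the resistant array and 32.3 and 31.7 units on the sensitive arrays, a difference of 1.08 as deposited and 1.73 after scaling, and its deposited call was lost with an offset of 100 units.

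The remaining 5 endoplasmic reticulum genes of those 8 were called higher after scaling only. Dnajc16 gave 0.79 as deposited and 1.61 once scaled, and Dnajc1, a membrane J-domain protein at translating ribosomes, gave 0.76 and 1.59. Dnajb12, which helps to degrade membrane proteins, differed by 0.47 and 1.29. Dnajb11, a soluble partner of BiP, read 9654 units on the resistant array and 7773 and 7313 units on the sensitive arrays, with 0.35 as deposited and 1.20 after scaling. Dnajc3, a co-chaperone that also restrains the kinase PERK, read 7128 units on the resistant array and 5265 and 4490 units on the sensitive arrays, with 0.55 and 1.39. The second Dnajc3 probe ran against the first, with 1016 units on the resistant array and 1671 and 1789 units on the sensitive arrays (-0.74 as deposited). Hsp90b1, the Hsp90 of this compartment, read 12345 units on the resistant array and 16981 and 17919 units on the sensitive arrays, with -0.50 as deposited and 0.35 after scaling. Dnajc18 gave 0.12 and 0.92. Dnajc25 (-0.66 as deposited, -0.28 after scaling) and Dnajb14 (-0.48 and -0.13) were below 0 on both scales and called on neither.

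The endoplasmic reticulum stress element, CCAAT and CCACG with 9 bases between, was searched on both strands of the same 250-base windows, a motif chosen after values were seen. It was found for 0.130% of all genes and for 2 of the 10 endoplasmic reticulum members with a promoter entry, Dnajc3 and Hsp90b1, of which neither rose on both scales. They are printed to show where the element lies, with it in capitals.

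Dnajc3, chr14:118937682-118937931, plus strand: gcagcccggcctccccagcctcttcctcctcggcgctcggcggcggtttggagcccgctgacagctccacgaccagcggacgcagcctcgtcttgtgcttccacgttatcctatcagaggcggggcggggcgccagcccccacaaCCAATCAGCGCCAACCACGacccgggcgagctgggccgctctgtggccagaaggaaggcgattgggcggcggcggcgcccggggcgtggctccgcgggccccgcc
Hsp90b1, chr10:86705445-86705694, minus strand: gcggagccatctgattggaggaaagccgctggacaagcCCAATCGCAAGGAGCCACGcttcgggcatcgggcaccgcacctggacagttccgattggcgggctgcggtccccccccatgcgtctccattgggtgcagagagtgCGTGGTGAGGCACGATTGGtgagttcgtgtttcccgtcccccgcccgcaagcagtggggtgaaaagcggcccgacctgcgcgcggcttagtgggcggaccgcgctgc

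Dnajc3 held 1 copy, beginning 105 bases before the start, and Hsp90b1 held 2, beginning 212 and 107 bases before it, the second on the opposite strand. None of the 7 members with a promoter entry that rose held this element in the window. At 0.130% of all genes, 7 genes are too few to decide anything, and Hspa13 had no promoter entry.

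None of the 8 subunits of the CCT ring rose or fell. Of 3755 genes of at least 500 units on every array, 262 rose and 144 fell. With shares that low, 8 genes are too few for a count of 0 to set the ring apart. All 8 were bright, at 2002 units or more on every array. Cct7 read 45198 units on the resistant array and 69556 and 74873 units on the sensitive arrays, with -0.67 as deposited and 0.17 after scaling. Cct8 read 24915 units on the resistant array, against 33572 and 39720 units on the sensitive arrays (-0.55, and 0.30 after scaling). Cct6a read 15787 units on the resistant array and 19215 and 24175 units on the sensitive arrays (-0.45, and 0.40 after scaling), and its second probe gave -0.43 as deposited. In these 3 subunits the resistant value lay below both sensitive values, by less than the 0.85 by which bright probes were lower as a whole.

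Cct2 (-0.54 as deposited, 0.31 after scaling), Cct4 (-0.66 and 0.18) and Tcp1 (-0.23 and 0.60) were likewise below 0 as deposited and above 0 after scaling. Cct5 and Cct3 marked the ends of the range. Cct5 read 6841 units on the resistant array and 14720 and 13954 units on the sensitive arrays, a call on the deposited scale only (-1.06, limma adjusted p = 9.24e-04, and -0.22 once scaled). Cct3 read 5877 units on the resistant array and 4639 and 5661 units on the sensitive arrays, with 0.20 as deposited and 1.04 after scaling, not called because its scaled difference from sensitive replicate 2 was under 1. The ring's median was -0.54 as deposited and 0.30 after scaling, beside -0.55 and 0.28 for all genes of at least 500 units on every array. The direction of 6 of the 8 subunits turned with the scaling, so no direction is given for the ring. At an unadjusted p under 0.05 in limma, 5 were lower and 0 higher as deposited, and 0 lower and 2 higher after scaling. All genes were not counted at that threshold, so these counts do not set the ring apart. The paralogues Cct6b and Cct8l1 read at most 50.1 units on any array.

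Neither Hsp90 gene was called on either scale. Hsp90ab1, a cytosolic Hsp90 counted above among the heat-inducible genes, read 19767 units on the resistant array and 21827 and 25179 units on the sensitive arrays, with -0.25 as deposited (limma adjusted p = 0.355) and 0.60 after scaling. Of 7 mitochondrial members, 1 fell (Hspe1) and 0 rose, beside 7.74% and 5.21% of all genes. The remaining 6 lay between -1.16 (Dnajc11) and 0.23 (Dnaja3) as deposited. Dnajc15, a subunit linked to the protein import motor, read 8053 units on the resistant array and 7784 and 8335 units on the sensitive arrays, with a resistant value between the sensitive values and a scaled difference of 0.84.

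Among the 8 genes with an Hspb symbol, 2 fell (Hspb1 and Hspb11) and 0 rose, beside 7.74% and 5.21% of all genes. Their median was -0.83 as deposited and -0.74 after scaling. They are grouped by symbol, and without Hspb11 1 of 7 fell, with medians of -0.82 and -0.53. Hspb6, a muscle-type member, read 372 units on the resistant array and 222 and 292 units on the sensitive arrays and was called higher after scaling only (0.47 as deposited, 1.24 after). Hspb2, Hspb3, Hspb7 and Hspb9 read at most 91.0 units on any array. Dnajc12 and Dnajc22, 2 J-domain genes outside the endoplasmic reticulum group, were also called higher after scaling only (1.31 and 1.46).

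Many members were dim. In all, 13 of the 78 stayed under 50 units on all 3 arrays, among them Hspa1a, Hspa12a, Dnajb3, Dnajb7 and Dnajb8, and 11 were at or below 10 units on the resistant array. Of the members, 37 reached 500 units on every array, and of these 2 rose (Hspa13 and Dnajc10) and 1 fell (Hspe1). Of all 3755 genes that bright, 262 rose and 144 fell.

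**Figure D3:**
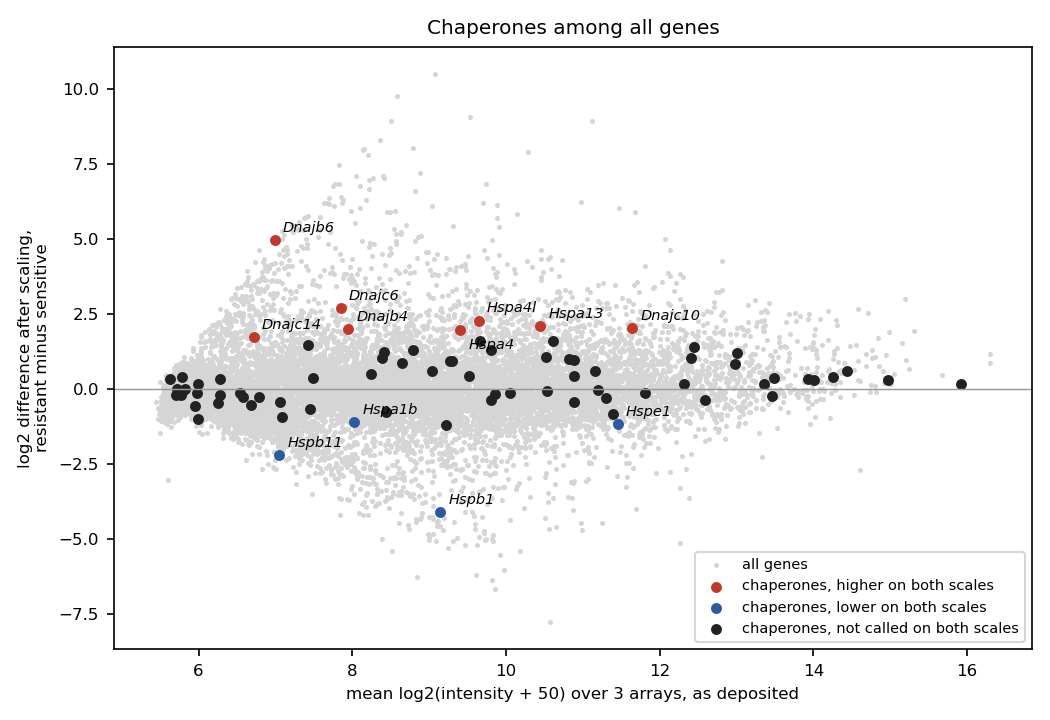
Difference after scaling on bright probes (log2, vertical axis) against the mean log2(intensity + 50) over 3 arrays, with all 17742 genes in grey and the 78 chaperones as large points. The 12 chaperones called on both scales are named. They lie within the cloud of all genes, and Cct7, Cct8, Cct6a and Hsp90ab1 on the right lie between 0.17 and 0.60.

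Where a gene had several probes, these often differed. Of 17 members with more than 1 probe, 10 had probes on both sides of 0 as deposited. Dnajb11 gave 0.35 and 0.64 on its bright probes and -0.49 on a probe that read at most 25.1 units. Dnaja1 (-1.65 and -0.72) and Cct6a (-0.45 and -0.43) had the same sign on both. Except for Dnajb6, the members that rose or fell had 1 probe each, so none of the other 11 has a second probe to set beside it.

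**Figure D4:**
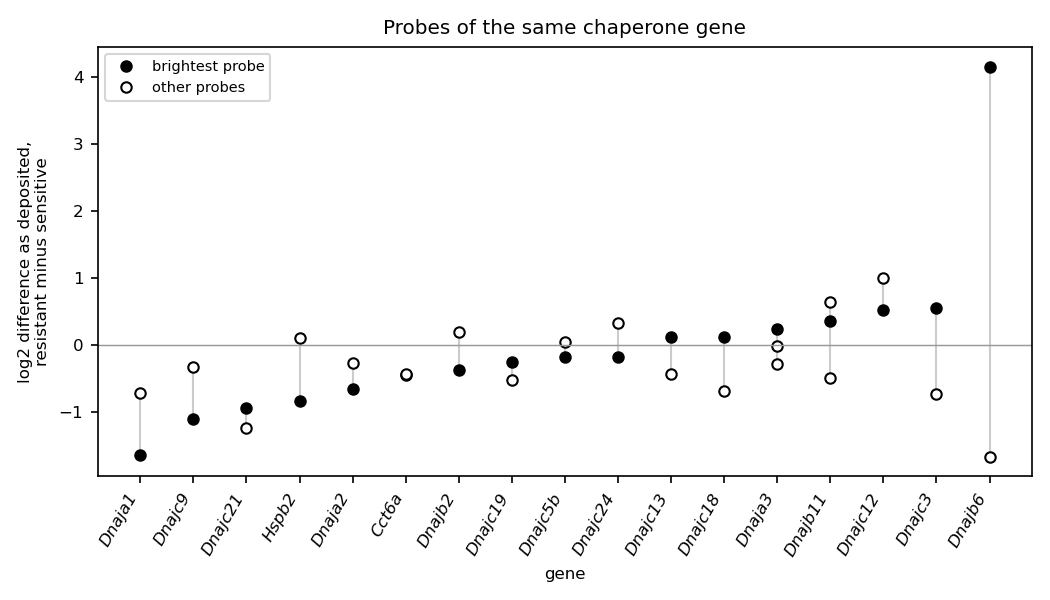
Difference as deposited (log2, vertical axis) for each probe of the 17 chaperone genes with more than 1 probe. Filled circles are the brightest probe, which stands for the gene, and open circles are the others. Dnajb6 and Dnajc3 have probes on opposite sides of 0, and those of Cct6a nearly coincide.

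Of the genes that work with the chaperones, some fell and none rose. Of 87 listed partner genes, 77 were measured, and 11 fell, 0 rose and 66 were not called on both scales, beside 7.74% and 5.21% of all genes. As deposited 28 were called lower and 0 higher, beside 18.5% and 5.23% of all genes. After scaling 11 were called lower and 8 higher, beside 7.87% and 10.7% of all genes. At an unadjusted p under 0.05 in limma, 4 were higher and 51 lower as deposited, and 18 higher and 24 lower after scaling. No count over all genes at that threshold stands beside these, so they do not set the partners apart. The partners' median was -0.75 as deposited and -0.07 after scaling, beside -0.33 and -0.03 for all genes. Many partners were bright, with 45 of the 77 at 500 units or more on every array. Over all genes that bright the medians were -0.55 and 0.28.

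Among them were substrates of the CCT ring and subunits of the prefoldin complex that feeds it. Of 16 tubulin cofactors and CCT substrates, 5 fell and 0 rose, beside 7.74% and 5.21% of all genes. The tubulin gene Tubb2a read 138 units on the resistant array and 2434 and 3054 units on the sensitive arrays (-3.88 as deposited, -3.21 after scaling), and Tubb2b read 34.2 units on the resistant array and 699 and 947 units on the sensitive arrays (-3.36 and -2.95). Tuba1a (-2.14 and -1.33) and the ubiquitin ligase subunit Fbxw7 (-2.09 and -1.44) also fell, as did the tubulin cofactor Tbcb (-2.04 and -1.22). Tubb4b gave 0.17 as deposited and 1.02 once scaled, and was called higher after scaling alone. Actb, cytoplasmic actin, gave -1.05 as deposited and -0.21 after scaling, and was called lower as deposited alone. Tubulin genes resemble each other closely, so their probes may share transcripts. Of 11 prefoldin and CCT partner genes 2 fell, Pdrg1 (-3.60 and -3.04), a prefoldin-like subunit, and Pfdn1 (-1.82 and -1.06). Pfdn2 (-1.69) and Pfdn5 (-1.40) were called lower as deposited only. As deposited 6 of the 11 were called lower, beside 18.5% of all genes. After scaling 1 was called higher, Pdcl (0.75 and 1.55), beside 10.7% of all genes.

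Among the partners of Hsp90 and Hsp70, 1 of 19 and 1 of 12 fell, and 0 rose, beside 7.74% and 5.21% of all genes. Ppp5c, a phosphatase that docks on Hsp90, read 283 units on the resistant array and 1780 and 2228 units on the sensitive arrays (-2.62 and -1.87). Bag2, an exchange factor that inhibits the ligase CHIP, read 333 units on the resistant array and 1637 and 1758 units on the sensitive arrays (-2.19 and -1.43). The Hsp90 co-chaperones Stip1 (-0.27 and 0.58) and Ahsa1 (-0.23 and 0.62) were called on neither scale, and nor was the heat-inducible Bag3 (-0.35 and 0.45). Of 9 heat shock factors and regulators, 2 fell, Vcp (-2.60 and -1.77), an unfoldase that pulls ubiquitinated proteins apart, and Hdac6 (-1.94 and -1.15), a deacetylase of Hsp90 and tubulin. Hsf2 differed by -0.77 as deposited and -0.02 after scaling. None of 10 mitochondrial partners rose or fell, too few genes for a count of 0 to set them apart. Their median was -0.41 as deposited and 0.43 after scaling. The unfoldase Clpx (-1.18) and the J-domain protein Hscb (-1.64) were lower by the call rule before scaling alone, and the proteases Spg7 and Afg3l2 and the disaggregase Clpb were higher by it after scaling alone.

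**Figure D5:**
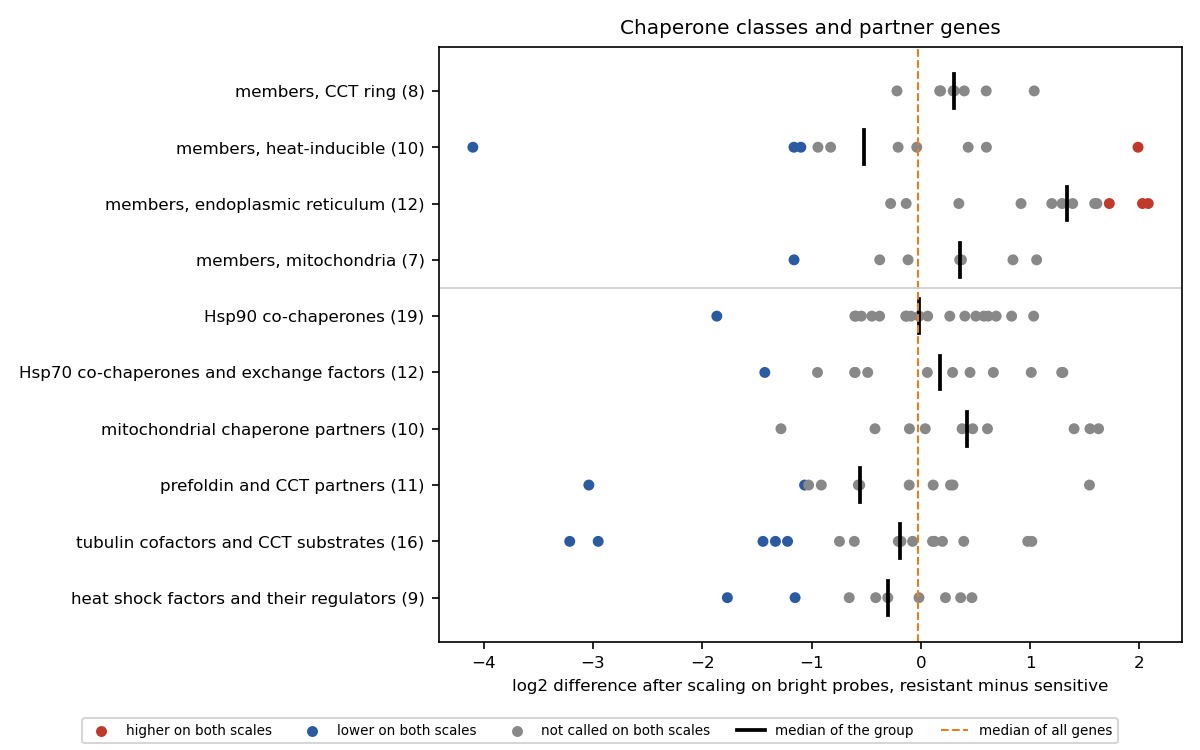
Difference after scaling on bright probes (log2, horizontal axis) for 4 classes of members, above the line, and for the 6 lists of partner genes, below it, with the number of genes in brackets. Points are genes, coloured by whether they were called on both scales, bars are medians of the group and the dashed line is the median of all genes. The endoplasmic reticulum class has the highest median, 1.34, and prefoldin and CCT partners the lowest, -0.56.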

How the data were processed

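Per the labels' protocols, amplified RNA carried a single dye, Cy5, on each array. The authors deposited 1 table with a linear intensity per probe and array. It reaches below 0, so a background had been subtracted, and values came in even steps of 1.56 units on the resistant array, against 1.24 and 1.32 on the sensitive arrays (99.99% of them whole within 0.02 steps), as 1 factor per array gives. The sources used here do not name the scanner, software or factors. 20377 probes had a symbol in the platform's annotation (18213 current, 2126 older, 38 unmatched in GRCm38.p6).

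Values as log2(intensity + 50) from all 3 arrays went into limma 3.58.1 under R 4.3.3 (lmFit, eBayes with a trend, 1 residual degree of freedom, prior 11.0), with resistant minus sensitive as the contrast. This assumes that the resistant array varies as the sensitive arrays do, and 3 arrays limit the precision. All 4212 genes of the size asked also passed the adjusted p as deposited, so size decides each call on that scale. The fit was also run on simulated arrays drawn around the sensitive means with its own variances and no dimmer array. That checks how the fit runs and does not test the calls made here. Tables and plots came from pandas 2.3.3, numpy 2.4.6 and matplotlib 3.10.9 under Python 3.11.15.

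Members and lists were chosen with earlier results of these data known. Named were all members called on both scales, the CCT subunits, Hsf1, the main heat shock genes and the 3 bright members with the smallest scaled difference, and of each partner list up to 4 called genes and 2 others. Genes called on 1 scale only, and further partner genes, were named after their values were seen. Leaving Hsp90ab1 and Hspb11 out of their groups was also chosen after seeing the data. Alternatives were other scalings, offsets, filters, probe rules, variance models, thresholds and leaving out each sensitive array.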

Additional observations from a re-analysis of the deposited data

How the results depend on the processing

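With 1 resistant array and no scanner flags, depth of signal limits the dim members, and no batch is given. No paired analysis was possible because the resistant group is 1 array with no replicate number. The members called higher (8) numbered 16 after scaling on bright probes and 16 with those probes chosen over 3 arrays (chosen after seeing the data), 14 with arrays centred on medians, 1 with values under 50 units set to 50 and 1 at a log2 size of 2. The members called lower (13) numbered 4, 5, 4 by quantile normalization, 5 with medians, 0 with the floor, 28 by adjusted p alone, 2 at a size of 2 and 24 at a size of 0.6. Partner genes called higher (0) numbered 8, 6, 4 by quantiles, 6 with medians, 4 by adjusted p alone and 3 at a size of 0.6. Partner genes called lower (28) numbered 11, 12, 16 by quantiles, 14 with medians, 0 with the floor, 46 by adjusted p alone and 8 at a size of 2. All genes called higher (928) numbered 1890, 1740, 1697 with medians, 133 with the floor, 1566 by adjusted p alone and 354 at a size of 2. All genes called lower (3284) numbered 1397, 1521, 1219 by quantiles, 1273 with medians, 26 with the floor, 6935 by adjusted p alone, 734 at a size of 2 and 5511 at a size of 0.6.

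The members' median (-0.26) was 0.30 after scaling, 0.21 with probes chosen over 3 arrays, 0.0054 by quantiles, 0.37 with medians, -0.43 with an offset of 16 units, -0.098 with the floor, -0.43 without the dimmest 25% of genes and -0.39 without probes near 0. Without 1 sensitive array it was between -0.33 and -0.30, with 8 members called higher and 14 to 16 lower, 0 partner genes higher and 30 lower, and 976 to 1108 genes higher and 3625 to 4288 lower, counted by size alone, since 1 array a group leaves no test. The share of calls that were higher was 22.0% as deposited, 57.5% after scaling, 52.3% by quantiles and 57.1% with medians. All 8 members that rose and all 4 that fell were also called by quantiles and with medians. With the floor, 6335 genes had both sensitive arrays at 50 units, the prior degrees of freedom fell to 0.744, and 8 members were higher and 14 lower by size alone. Elsewhere the cause was not tested.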
